A study of Drosophila melanogaster with 2 samples.

Results

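Peaks of the ETS-domain transcription factor Ets98B at internal alternative promoters were examined in whole Drosophila melanogaster pupae. A peak was counted when its summit lay within 500 bp of a transcription start site (TSS) of exactly 1 protein-coding gene, but more than 500 bp from the most upstream TSS annotated for that gene. Of the 7157 peaks in the authors' conservative list, 733 (10.2%, 95% Wilson interval 9.56 to 11.0%) met this rule, and they belonged to 557 genes. The annotation bears out the label for most of them: the TSS nearest the summit was itself more than 500 bp from the most upstream one for 697 of the 733. The data came from chromatin immunoprecipitation followed by sequencing (ChIP-seq), with an antibody against GFP, in 2 biological replicates of 1 group. The animals were transgenic pupae aged 2 days of a strain with an insertion at Ets98B that makes an Ets98B-eGFP fusion protein, and both sexes and all tissues may be pooled, since sex was not recorded. No untagged or input sample was analysed here, so the comparisons are between peaks, promoters and sequence within these lists. Whether the internal TSSs were in use in these pupae was not measured.

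Many fly genes start transcription at more than 1 promoter. An internal promoter lies within the span of the longest transcript, often in an intron, and gives a transcript with another first exon, which may change the start of the protein or only the untranslated leader. ETS-domain proteins bind DNA words with a GGAA or GGAT core, and Ets98B is the fly relative of the mammalian factor SPDEF. Fly promoters fall into broad classes by their sequence elements. The DNA replication-related element (DRE, TATCGATA) and the M1BP word (GGTCACAC) are typical of broadly expressed genes, whereas GAGAG, bound by GAGA factor, and the initiator are typical of regulated genes.

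The bases within 50 bp of the summits of the strongest internal-promoter peaks are shown first, because they are the sites with the highest signal and show the base composition described later. They are the 8 strongest on the arms printed here, followed by the peak at the internal promoter of Ets98B itself. Capitals mark the TATA-box word TATAAA, the DRE, the M1BP word, the ETS cores GGAA and, where present, GGAT, and the repeat word GAGAG, on either strand. Each sequence reads 5′ to 3′ on the strand of its gene, from the Release 6 (dm6) reference. In order, the windows are chr3R:31404602-31404702 (minus strand), chrX:2137296-2137396 (minus), chrX:13131296-13131396 (plus), chr3R:20778618-20778718 (plus), chr3R:24572613-24572713 (minus), chr3R:16280678-16280778 (plus), chr2L:4997610-4997710 (minus), chr2L:19528459-19528559 (minus) and chr3R:27742839-27742939 (plus).
PNPase: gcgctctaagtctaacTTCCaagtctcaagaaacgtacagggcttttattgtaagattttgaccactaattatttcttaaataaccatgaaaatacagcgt
ph-p: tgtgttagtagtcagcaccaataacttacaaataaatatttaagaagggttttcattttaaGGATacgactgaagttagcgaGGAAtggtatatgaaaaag
MFS10: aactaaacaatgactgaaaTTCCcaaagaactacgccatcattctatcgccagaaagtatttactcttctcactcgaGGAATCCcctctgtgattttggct
Syp: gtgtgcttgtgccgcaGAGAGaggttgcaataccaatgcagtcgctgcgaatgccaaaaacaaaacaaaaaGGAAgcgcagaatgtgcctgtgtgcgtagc
REPTOR: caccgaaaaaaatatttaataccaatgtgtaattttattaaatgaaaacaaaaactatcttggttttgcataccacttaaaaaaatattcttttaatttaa
gish: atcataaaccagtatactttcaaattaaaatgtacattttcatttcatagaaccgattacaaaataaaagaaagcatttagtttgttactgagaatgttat
Rtnl1: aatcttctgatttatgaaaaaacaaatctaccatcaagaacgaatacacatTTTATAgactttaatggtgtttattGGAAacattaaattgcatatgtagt
CG10165: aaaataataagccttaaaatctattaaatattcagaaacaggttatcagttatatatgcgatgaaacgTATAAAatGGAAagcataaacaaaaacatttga
Ets98B: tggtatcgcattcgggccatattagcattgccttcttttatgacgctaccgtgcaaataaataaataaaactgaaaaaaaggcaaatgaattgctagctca
Most of these windows were rich in A and T, with 19.8% G and C in REPTOR and 23.8% in gish and in CG10165, and 50.5% in Syp. GAGAG occurred in the Syp window alone among these 9. No capital letter appears in the REPTOR, gish and Ets98B windows, so that the 3 hold neither ETS core.

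To set beside them, the 4 strongest peaks on the arms printed here that hold GAGAG and passed the authors' threshold in replicate 2 but not in replicate 1 are shown. They were chosen after the values of the words had been seen. The windows are chr2L:471021-471121 (minus strand), chr3R:23728243-23728343 (plus), chrX:15626405-15626505 (minus) and chr3L:17576719-17576819 (minus), marked in the same way.
CG4297: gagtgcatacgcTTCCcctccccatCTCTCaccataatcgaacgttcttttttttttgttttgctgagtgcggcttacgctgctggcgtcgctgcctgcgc
CG10365: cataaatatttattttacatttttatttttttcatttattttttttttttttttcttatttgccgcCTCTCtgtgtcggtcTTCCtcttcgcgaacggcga
sog: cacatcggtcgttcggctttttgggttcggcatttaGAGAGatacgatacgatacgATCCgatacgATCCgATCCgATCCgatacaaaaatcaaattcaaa
Eip74EF: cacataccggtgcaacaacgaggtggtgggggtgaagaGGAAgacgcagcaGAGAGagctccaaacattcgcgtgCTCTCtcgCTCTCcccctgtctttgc
The window in sog, which encodes an inhibitor of BMP signalling, held 1 GAGAG, and that in Eip74EF, an ecdysone-induced ETS-domain gene, held 3 that did not overlap.

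The 733 internal-promoter peaks reached from signal 12.5 to 2239, with a median of 136 (quartiles 94.1 and 225). Signal is the peak caller's value in the deposited lists, whose scale is not stated in the sources used here. The median of the 1394 peaks at first promoters was 129 (quartiles 94.6 and 197). Those are peaks within 500 bp of TSSs of exactly 1 protein-coding gene, with its most upstream TSS among them. A signal above the median of the whole list was found in 52.7% of internal-promoter and 48.7% of first-promoter peaks (difference 3.95 points, Fisher's exact test, p = 0.0914). In replicate 1 alone these shares were 52.4% and 47.2% (exact p = 0.0595), and in replicate 2 alone 53.4% and 48.2% (exact p = 0.0105). Internal promoters supplied 17 of the 100 strongest peaks in the list and 70 of the 500 strongest.

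The strongest internal-promoter peak, at rank 4 of the entire list, lay in an intron of PNPase, which encodes a polynucleotide phosphorylase of mitochondrial RNA metabolism (chr3R:31404489-31404826). Its signal was 2239 in the list of both replicates, 1049 in replicate 1 and 1185 in replicate 2, and its summit lay 84 bp upstream of the internal TSS and 800 bp downstream of the first. The peak in ph-p, a Polycomb group gene, had signal 1716 (901 and 813 in replicates 1 and 2), and its summit was 491 bp upstream of the internal TSS, at the edge of the 500-bp window. Fkbp14, a peptidyl-prolyl isomerase gene, had 1558 (754 and 798) and MFS10, a transporter gene of the major facilitator family, 1539 (715 and 817). In these 4 the replicates lay close together. The next, Syp, which encodes an RNA-binding protein that acts in neuronal timing, differed between them, with 1535 in the set but 418 in replicate 1 and 1106 in replicate 2.

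Among the 20 strongest, lawc (325 and 904) and wech (197 and 686), a gene for a muscle attachment protein, showed the same gap as Syp. Those 3 windows all held GAGAG, as did that of CG9815, which was higher in replicate 1 (550 and 470). REPTOR, a transcription factor gene of the TOR pathway, had 1391 (677 and 702) and Lpin, a phosphatidate phosphatase gene, 1372 (629 and 738). The peak in gish, a casein kinase gene, reached 1349 (675 and 671), that in Rtnl1, a reticulon gene, 1333 (645 and 683), and that in CG10165 1308 (607 and 696). The others ran from CG1888 with 1284 through Trp1, papi, Btk and for, the cGMP-dependent protein kinase gene, to PAN3 and CG8036, down to wech with 874. All 20 except lawc had the summit upstream of the nearest TSS of the gene.

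**Figure D1:**
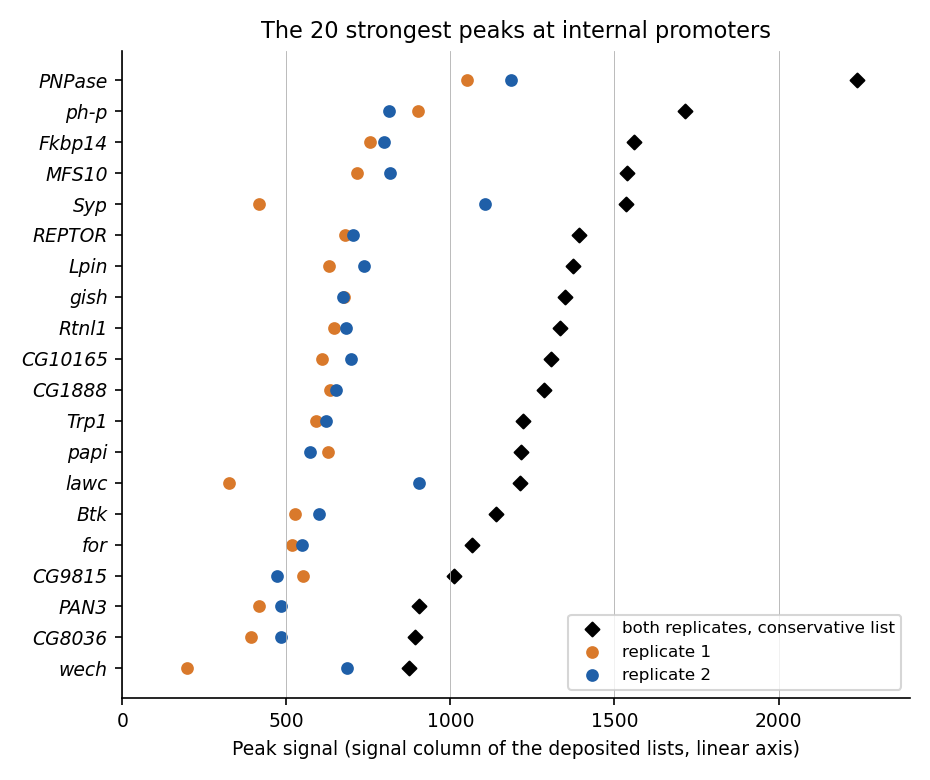
Peak signal (linear axis) of the 20 strongest peaks at internal promoters, one row a peak named by its gene; diamonds are the list of both replicates and dots each replicate. Both replicates lie close together in most rows, and Syp, lawc and wech stand out with replicate 2 far above replicate 1.

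Across all members the strongest peaks passed the authors' threshold in both replicates and the weakest seldom did. The signal that ranks them was close to the sum of the replicate values (median 0.995 times), so this follows largely from the ranking. A summit within 100 bp was found in the thresholded lists of both replicates for 420 of the 733 (57.3%), against 54.9% of first-promoter peaks (Fisher's exact test, p = 0.291). It was found in replicate 1 only for 42, in replicate 2 only for 179 and in neither for 92. All of the 100 strongest members were in both, and 3 of the 100 weakest. In the longer ranked lists 632 members had a match in both replicates. Over those 632 peaks, which share their libraries, Spearman's rho of the replicate signals was 0.68. The value as deposited was higher in replicate 2 for 458 (72.5%). Since no common scale of the replicate lists is known, a higher value in replicate 2 is to be read against that share. Each replicate list on its own gave 527 internal-promoter peaks of 5850 (9.01%) and 930 of 7963 (11.7%).

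Summits lay mostly upstream of the TSS. Of the 731 not exactly at a TSS, 509 (69.6%, 66.2 to 72.9%) were upstream, more than an even split (exact two-sided binomial test, p = 8.22e-27), and the median position was 106 bp upstream. Upstream shares were 72.8% in replicate 1 and 69.6% in replicate 2. First-promoter summits were upstream in 69.7% but nearer, with a median of 72 bp. Of them 47.1% lay within 100 bp of the TSS against 33.0% of internal-promoter summits. The rule itself bears on the side of the internal ones. For members other than the 697 whose nearest TSS is more than 500 bp from the first, the summit is downstream by construction. Summits upstream of an internal TSS but within 500 bp of the first TSS are not counted. The upstream shares of both kinds are thus not like for like. The highest bin of the internal-promoter summits was 150 to 200 bp upstream. Introns held 535 summits (73.0%), untranslated exon sequence 182 and coding exons 16. The distance downstream of the most upstream TSS had a median of 4136 bp (quartiles 1333 and 14043 bp).

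**Figure D2:**
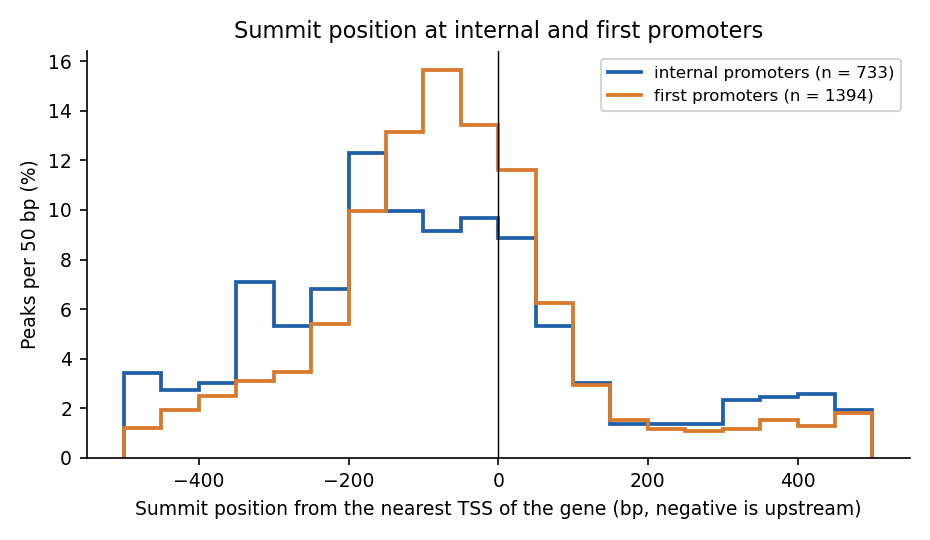
Position of the summit from the nearest TSS of its gene in bins of 50 bp (horizontal axis, bp; vertical axis, percent of peaks), for 733 internal-promoter and 1394 first-promoter peaks. Both lie mostly upstream, and first-promoter summits crowd more closely around the TSS.

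Position and base composition went with peak strength. Among the 147 strongest members 83.0% of summits were upstream (76.1 to 88.2%), with a median of 182 bp, and among the 147 weakest 61.2% (53.2 to 68.7%), with a median of 39 bp. The median share of G and C at the summit was 32.7% in the strongest group and 45.5% in the weakest. TATAAA occurred in 19.7% and 10.9% of these groups. GAGAG was least frequent in the strongest group, at 18.4% (12.9 to 25.4%), and most frequent in the middle group of 147, at 35.4% (28.1 to 43.4%). The pattern of position was found in each replicate alone: 84.8% of the strongest and 70.5% of the weakest 105 members were upstream in replicate 1, and 79.0% and 59.7% of 186 in replicate 2. First promoters showed it as well, with 82.1% of their 279 strongest and 57.7% of their 279 weakest peaks upstream and the same 32.7% and 45.5% of G and C. These groups were cut by signal and are given as a description, with no test.

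**Figure D3:**
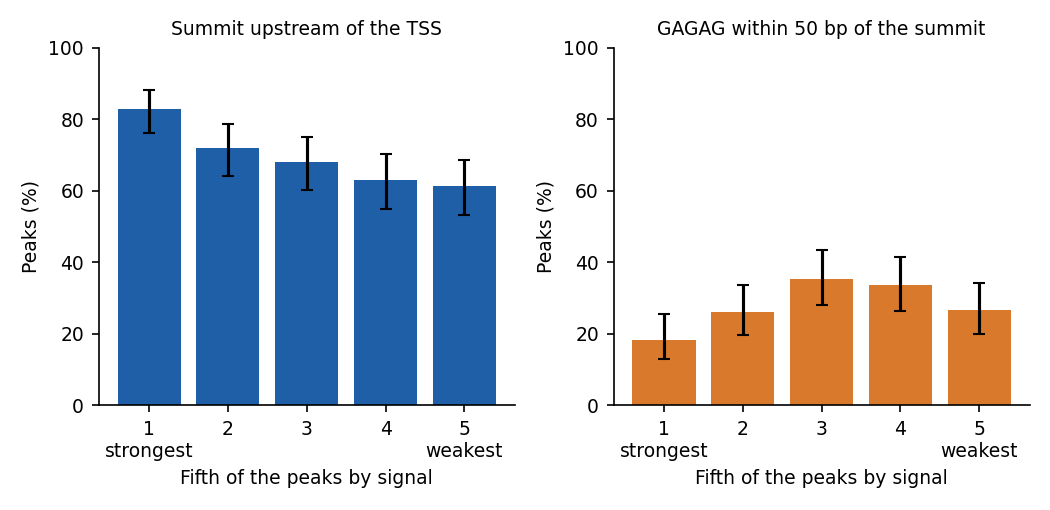
Percent of internal-promoter peaks with the summit upstream of the TSS (left) and with GAGAG within 50 bp of the summit (right), in 5 groups of 146 or 147 peaks by signal, with 95% Wilson intervals. The upstream share falls from 83.0% in the strongest to 61.2% in the weakest group, whereas GAGAG is highest, at 35.4%, in the middle one.

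Internal-promoter peaks were found in a minority of the genes that have an internal promoter. Of the 2171 protein-coding genes with a TSS more than 500 bp from the most upstream one, 533 (24.6%, 22.8 to 26.4%) held an internal-promoter peak. Replicate 1 alone gave 18.3% and replicate 2 alone 29.7% (mean 24.0% ± 8.08, SD, n = 2). Any peak within 500 bp of the most upstream TSS, shared with another gene or not, was found in 606 of the same genes (27.9%), and a first-promoter peak of that gene alone, the like of the rule for internal ones, in 409 (18.8%). With shared peaks counted at the first promoter, both promoters were bound in 212 genes, the internal one alone in 321, the first alone in 394 and neither in 1244. Of genes with an internal-promoter peak, 39.8% also had one at the first promoter (28.7% in replicate 1 and 45.1% in replicate 2), against 24.1% of genes without. The remaining 24 member genes have no TSS beyond the 500-bp limit, and their summits met the rule from a TSS closer to the first.

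The share grew with the number of internal TSSs, each of which is another chance to hold a peak. It was 14.6% of the 1357 genes with 1 internal TSS, 31.7% of the 464 with 2, 51.4% of the 278 with 3 or 4 and 60.3% of the 63 with 5 to 8. Per start site, TSSs within 100 bp being joined and sites near another gene's TSS left out, 640 of 3302 sites (19.4%) had a summit. The share was 17.5% (14.8 to 20.7%) for sites between 1000 and 2000 bp from the first TSS and 24.0% (20.6 to 27.8%) for those beyond 20000 bp. For sites within 1000 bp it was 14.0%, but there the rule takes away part of the window, since summits within 500 bp of the first TSS are not counted. Beside the limit of the rule, 25 members lay at most 600 bp downstream of the first TSS, with a median signal of 102. In the last 100 bp before the limit, upstream or downstream of that TSS, lay 121 first-promoter peaks, with a median of 133. The 2 counts are unlike, since members also need another TSS of the gene within 500 bp. In 348 members (47.5%) the transcripts at the peak had another start codon than those of the first promoter, and this held for 46.9% of all 3646 internal TSSs.

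In genes bound at both kinds of promoter, the stronger peak was internal in slightly more of them. Any peak within 500 bp of the most upstream TSS was taken here, also where it is shared with a neighbouring gene. A signal at both was present in 225 genes, which include 13 outside the 2171, and the strongest internal peak exceeded the first-promoter peak in 127 (56.4%, 49.9 to 62.8%, exact two-sided binomial test, p = 0.0617). It did so in 63 of 118 genes in replicate 1 (exact p = 0.519) and in 185 of 302 in replicate 2 (exact p = 1.09e-04). The internal peak was more than 2-fold stronger in 63 genes and the first-promoter peak in 33. The choice of the strongest among several internal peaks favours the internal side by construction. In 211 of the 225 genes both replicates had values at both promoters in their ranked lists, and 154 of these had 1 direction in both replicates and in the list of both. Replicate values are of the strongest internal peak in that replicate, which can be another peak of the gene. With first-promoter peaks of single genes only, a setting added after the data had been seen, the internal peak was stronger in 91 of 160 genes (exact p = 0.0966).

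Among those 154 genes, the widest gap in favour of an internal promoter was in MFS10, with 1539 against 76.8 at the first (20-fold; 715 against 32.2 in replicate 1 and 817 against 42.1 in replicate 2). It was followed by wech (14.2-fold), PAN3, a subunit of an mRNA deadenylase (9.49-fold), Ptpmeg2, a protein tyrosine phosphatase (8.88-fold), and dnc, the cAMP phosphodiesterase gene known from learning mutants (8.21-fold). The widest gap in the other direction was in Chro, which encodes the chromosomal protein Chromator, with 65.5 inside the gene and 1447 at its start (22.1-fold; 34.8 and 800 in replicate 1, 38.2 and 659 in replicate 2). CenG1A (18.2-fold), CG1275 (16.6-fold), the tRNA methyltransferase gene Trmt6 (8.66-fold) and CG5953 (7.37-fold) came next, and the peak at the start of CenG1A is also within 500 bp of the TSS of mRpS23.

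**Figure D4:**
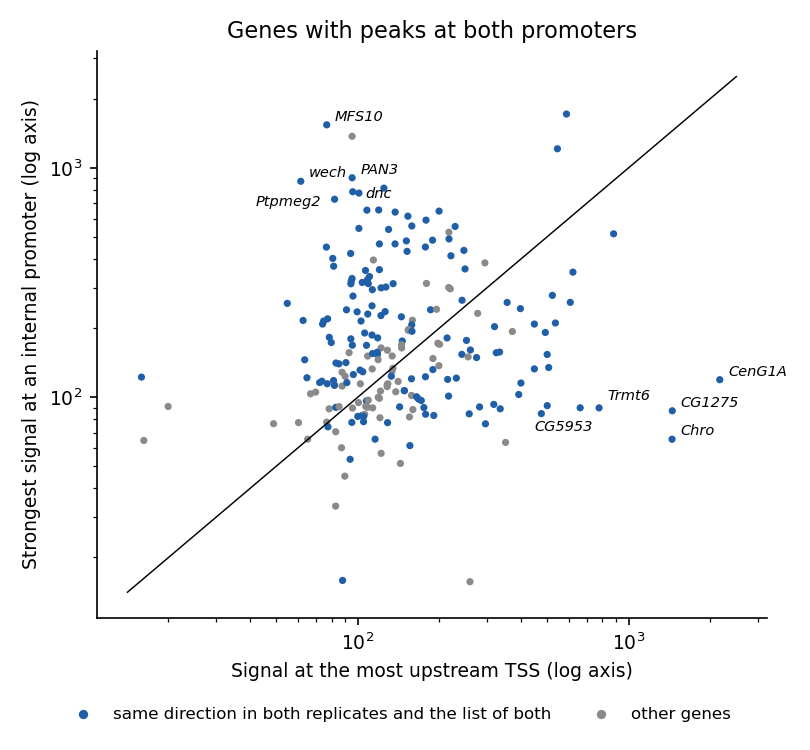
Signal of the strongest internal-promoter peak (vertical, log axis) against the peak at the most upstream TSS (horizontal, log axis) in 225 genes with both; the line marks equal signal and blue points have the same direction in both replicates and in the list of both. More genes, 127, lie above the line than below, and the named genes are, among the blue points, the 5 farthest from it on each side.

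Several long genes held many internal-promoter peaks: 425 genes had 1, 100 had 2, and 32 had 3 or more. Peaks of 1 gene can share a promoter, and the 733 members had 677 nearest TSSs, with members at more than 1 TSS in 95 genes. Svil, which encodes the actin-binding protein supervillin, had 6 peaks across 16 TSSs, with signals from 27.6 to 266. In dnc there were 5, from 121 to 786, the strongest 118562 bp downstream of the first TSS (389 in replicate 1 and 388 in replicate 2). Ptpmeg2 had 4 strong peaks of 729, 673, 644 and 451, and Rtnl1 4 from 149 to 1333. Eip75B, an ecdysone-induced nuclear receptor gene, had 4, of 278, 244, 136 and 131. SNF4Agamma, the gene of an AMP-activated kinase subunit, mtd, Pfrx and ATP8A also had 4, and Syp had 3 of 1535, 534 and 338. The members farthest from the first TSS were in kirre, a gene of myoblast fusion, at 359139 and 358939 bp, with weak signals of 26 and 73.0, and in Ten-a, a teneurin gene, at 160071 bp (172).

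Of 14 words searched within 50 bp of the summit, on either strand, 1 was more frequent there than 500 bp to the sides. The words were chosen with earlier results of these data known, which the adjustment over 14 words does not cover. GAGAG was present at 205 of 733 summits (28%) and in 14.7% of flanks (exact McNemar test, adjusted p = 1.67e-08), and at 16.6% of all 7157 summits in the list. In 51-bp windows it was at 16.2% at the member summit, and at 20.9% and 18.3% 100 bp to the left and right. GAGAG was thus not highest at the summit itself. First-promoter summits had more GAGAG than their flanks as well, 19.2% against 11.6% (adjusted exact p = 1.35e-05). This call rested on replicate 2: replicate 1 alone gave 21.3% at 527 summits and 16.9% in flanks (adjusted exact p = 0.845), and replicate 2 alone 32.2% at 930 and 14.0% (adjusted exact p = 2.13e-17). Among the 420 members with a summit in both replicates the difference was 8.69 points (adjusted exact p = 0.0649). The ETS cores were no more frequent at summits than beside them. GGAA was found at 48.3% of summits and 54.1% of flanks (adjusted exact p = 0.418), and GGAT at 29.1% and 36.4% (adjusted exact p = 0.0769). The lower share of GGAT at summits passed in 3 other settings, with differences from -7.87 to -9.16 points, and at first promoters, at 33.4% against 42.5% (adjusted exact p = 1.57e-04). The longer ETS word CCGGAA was found at 1.77% and 2.66% (adjusted exact p = 0.660).

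Internal promoters differed from first promoters in their promoter words. TATCGATA was at 2 of 733 internal-promoter summits (0.273%) and at 28 of 1394 first-promoter summits (2.01%, Fisher's exact test, adjusted p = 0.00485). Its shorter form CGATA, which lies inside TATCGATA, was at 11.7% and 17.0% (adjusted exact p = 0.00550), and GGTCACAC at 0.273% and 1.58% (adjusted exact p = 0.0162). These 3 words were lower at internal promoters in each replicate alone as well, with adjusted exact p from 4.89e-04 to 0.0340. Among peaks above the median signal, however, CGATA (-1.93 points, adjusted exact p = 0.532) and GGTCACAC (-0.772 points, adjusted exact p = 0.497) did not pass. CGATA also missed the threshold with summits in both replicates (-3.95 points, adjusted exact p = 0.174), and GGTCACAC with the strongest peak of each gene (-1.31 points, adjusted exact p = 0.0787). GAGAG was higher at internal promoters, at 28% against 19.2% (adjusted exact p = 6.90e-05). In replicate 1 alone the shares were 21.3% and 16.8% (adjusted exact p = 0.103) and in replicate 2 alone 32.2% and 23.5% (adjusted exact p = 2.32e-05). None of the 4 differences passed when the TSS window was widened to 1000 bp. For TATAAA the shares were 13.6% and 12.8% (adjusted exact p = 0.689), with a sign that turned under several settings.

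GAGAG was more frequent in members that were stronger in replicate 2. It was at 42.5% (35.5 to 49.8%) of the 179 members found in the thresholded list of replicate 2 only. It was at 7.14% (2.46 to 19.0%) of the 42 found in replicate 1 only, 24.3% of the 420 in both and 26.1% of the 92 in neither. Base composition differed between these groups as well. The median share of G and C at the summit was 49.5% for replicate 2 only, 37.6% for replicate 1 only and 37.6% for both. Of members matched in both ranked lists, the 174 with GAGAG had a median log2 ratio of replicate 2 to replicate 1 of 0.82 and were higher in replicate 2 in 85.6% of cases (79.7 to 90.1%). The 458 without it had a median log2 ratio of 0.23 and were higher in replicate 2 in 67.5% (63.0 to 71.6%). First promoters gave nearly the same medians, 0.80 with GAGAG and 0.25 without. In first-promoter peaks GAGAG was at 26.8% of those found in replicate 2 only and 19.4% (12.9 to 28.1%) of those in replicate 1 only. It was at 16.1% of those in both and 13.7% of those in neither. The low share of members in replicate 1 only was thus not seen at first promoters. The median shares of G and C there were 48.5% for replicate 2 only and 39.6% for replicate 1 only. The parts of the replicate and of base composition in the GAGAG differences were not tested further.

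**Figure D5:**
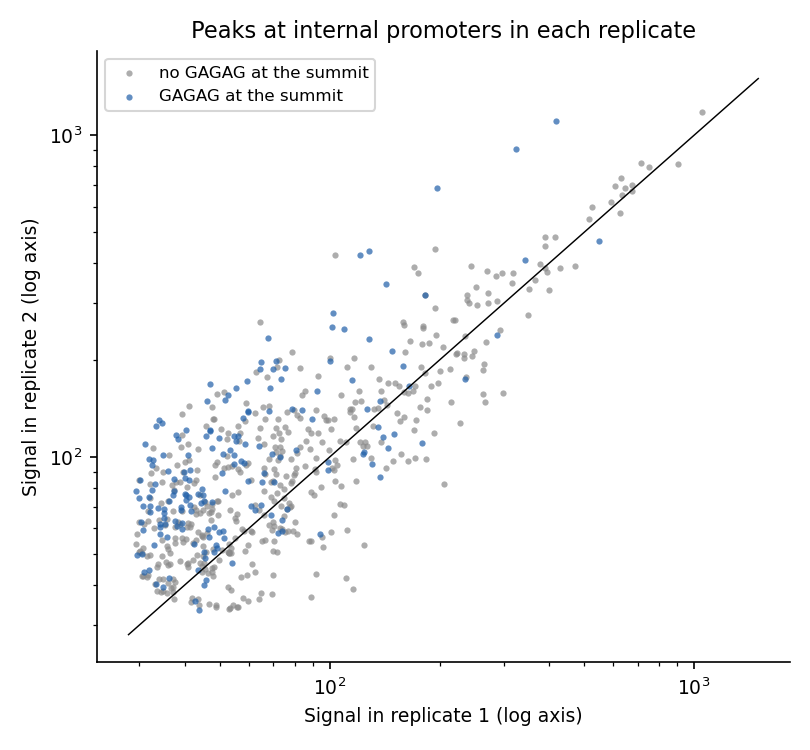
Signal of 632 internal-promoter peaks in replicate 1 (horizontal) and replicate 2 (vertical), both on log axes, with the line of equal signal; blue points hold GAGAG within 50 bp of the summit. The blue points lie mostly above the line, 149 of 174, and include Syp, lawc and wech at the upper edge.

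Elements around the TSSs themselves were counted next, in windows set by the TSS and not by the summit. TSSs with and without a summit were taken from the list of both replicates and were not counted in each replicate alone. The call of GAGAG at summits against flanks rested on replicate 2. Within 150 bp upstream to 50 bp downstream, GAGAG was on either strand of 55.2% (51.5 to 58.9%) of the 677 TSSs nearest a member, 32.5% (30.8 to 34.2%) of 2787 internal TSSs with no summit within 500 bp and 39.7% of the 1329 TSSs nearest a first-promoter summit. It was found at 22.6% of the most upstream TSSs of all 13968 protein-coding genes. The initiator letters TCAGT, on the gene's strand within 10 bp of the TSS, were at 25% (21.9 to 28.4%) of member TSSs. They were at 16.6% (15.3 to 18.0%) of internal TSSs with no summit and 20.8% of TSSs nearest a first-promoter summit. TATCGATA was at 0.591% of member TSSs and 1.65% of internal TSSs with no summit. It was at 7.67% of TSSs nearest a first-promoter summit and 8.21% of all most upstream TSSs. Low shares of the DRE were common to internal TSSs with and without a peak. GGTCACAC was at 1.77%, 1.40%, 6.92% and 7.02%, in the same order. TATAAA 45 to 15 bp upstream, on the gene's strand, was at 3.69% of member TSSs and 4.56% of internal TSSs with no summit. A match is a run of letters, and binding of GAGA factor or another protein was not measured.

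Genes with an internal TSS were counted in 10 lists of pathways and functions, to be read against 24.6% of all 2171 such genes in the conservative list, 18.3% in replicate 1 and 29.7% in replicate 2. The median number of internal TSSs was 1 over all such genes. In the lists it was 3 for RNA-binding protein genes and for kinase and GTPase regulator genes, and 1 to 2 for the others. In general the share was 14.6% of genes with 1 internal TSS, 31.7% with 2 and 51.4% with 3 or 4. Of the Wnt, Notch and Hippo signalling genes, 9 of 12 held a peak at an internal promoter (6 in replicate 1 and 9 in replicate 2). They include the kinase gene sgg (679; 270 and 378 in the replicates), the Notch inhibitor gene numb (357; 215 and 148) and the Hippo pathway DNA-binding partner gene sd (244; 75.5 and 188). Metabolic, redox and heat shock genes had 9 of 18 (5 and 11), among them the enolase gene Eno (466; 223 and 208), Hsp22 (289; 173 and 131) and Pgk (217; 130 and 94.9). RNA-binding protein genes had 10 of 21 (5 and 10), with Syp, shep and ps as the strongest.

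Ecdysone and nuclear receptor genes had 7 of 17 (4 in replicate 1 and 10 in replicate 2), and ecdysone is the steroid that drives metamorphosis in the pupa. The strongest was the late pupal regulator Eip93F (432; 180 and 255), followed by the coactivator gene tai (313; 67.5 and 235) and Eip75B (278; 115.2 and 174). The ecdysone receptor gene EcR had a peak of 184 that passed in replicate 2 (108) and had no match in replicate 1, and Eip74EF had 161 (38.2 and 113). Receptor tyrosine kinase genes had 7 of 17 (5 and 8), led by the phosphatase gene csw (362; 177 and 190), Src64B (326; 159 and 160) and the EGF receptor ligand gene spi (284; 206 and 82.6).

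Transcription factor genes of patterning and differentiation had 11 of 33 (11 and 16). The strongest were the gap gene hb (543; 241 and 300), Trl, which encodes GAGA factor (448; 234 and 209), and fru, a gene of sexual differentiation (251; 149 and 97.1). The peak in psq, whose protein also binds GAGAG, had 243 (124 and 103). Kinase and GTPase regulator genes had 10 of 26 (7 and 10), led by gish, for and sgg, and cytoskeleton and muscle genes 10 of 30 (7 and 12), led by pod1 (682), the nesprin gene Msp300 (411) and the spectraplakin gene shot (373). Cell adhesion and axon guidance genes had 7 of 17 (5 and 7), with Lar (194), Ten-a (172) and the integrin gene if (149). Ion channel and synapse genes had the lowest share, 3 of 22 (3 and 4), in dlg1 (397), the potassium channel gene Sh (271) and Nrx-1 (134). The genes were not independent of the earlier work on these peaks, and no list was tested.

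Ets98B, the tagged gene, was bound at its own internal promoter. The peak at chr3R:27742699-27743078 had signal 99.9 (46.0 in replicate 1 and 70.1 in replicate 2), and its summit lay 291 bp upstream of the internal TSS and 6351 bp downstream of the first. The peak at the first TSS had 119 (40.1 and 82.1), so that the internal one was higher in replicate 1 and lower in replicate 2. With rank 527 of 733, the peak was among the weaker members. Because the strain carries an insertion at this gene, the copies of the locus in these pupae may differ from the reference.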

How the data were processed

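ChIP-seq with an antibody against GFP was done in 2 biological replicates of whole pupae, with sheared chromatin of 200 to 800 bp, per the labels' size range. The authors deposited peak lists on dm6, and the signal column of these lists is the peak value used throughout. Its scale is, like aligner and caller, not given in the sources used here, so replicate values are set side by side as deposited and not put on a common scale. Over the 632 members with a match in both ranked lists, the signal of the deposited list of both replicates had a median of 0.995 times the sum of the replicate values. Per the labels, 1 list is called conservative and IDR thresholded, where IDR is the irreproducible discovery rate. Depth is unknown, and Wilson intervals (95%) cover counting error only.

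Summits were set against TSSs of all transcripts of protein-coding genes in Ensembl release 115 (BDGP 6.54), and sequence came from the Release 6 reference assembly of RefSeq. Replicate values come from the ranked list of that replicate, from the peak with a summit within 100 bp. Shares were compared by Fisher's exact test, splits by exact binomial tests and words within peaks by the exact McNemar test, with Benjamini-Hochberg adjustment over 14 words and a threshold of 0.05. Each flank was tested on its own, and the weaker of both results counted. The steps were tested on simulated data. Peaks of 1 gene are not independent, and the peak tests treat them as if they were. The members, words and gene lists were chosen with earlier results of these data known. Named genes are the 20 strongest, the 10 with most members, the 3 strongest of each list, the 5 largest and 5 smallest ratios, the 5 farthest members and Ets98B. EcR, Eip74EF, psq and the second set of sequences were chosen after their values were seen. Of the list entries, Dl, Crebb, Tor and RasGRP were not matched. Python 3.11.15, numpy 2.4.6, scipy 1.17.1, pandas 2.3.3 and matplotlib 3.10.9 were used.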

Additional observations from a re-analysis of the deposited data

How the results depend on the processing

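The upstream position of the summits kept its direction and its side of the threshold under every setting tried, with upstream shares from 67.4% to 76.2%. No paired analysis was possible because the labels give 1 group only. The share with a summit in both replicates cannot be had from 1 replicate. All 30773 transcripts are of protein-coding type, so the setting restricted to them changed nothing. The number of members was 386 and the share of genes with an internal-promoter peak 14.6% in peaks above the median signal, and 420 and 15.7% in peaks with a summit in both replicates, a setting added after the data had been seen. The share of these genes with a peak at the first promoter was 19.6% and 24.6% there. Across the replicate lists the number of members ran from 527 to 930. The difference between internal and first promoters in the share with a summit in both replicates turned to -2.59 points with the ranked lists.

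The difference in peaks above the list median passed with the strongest peak of each gene (7.79 points) and with summits in both replicates (7.25 points). It ran from 5.17 to 5.27 points in the single replicates. Keeping the strongest peak favours the internal side by construction. The 733 internal-promoter peaks fall in 557 genes and the 1394 first-promoter peaks in 1317, so more weaker internal ones are dropped. The share of genes with the stronger peak inside passed in the other series-level list (59.3%) and with a TSS window of 1000 bp (56.9%), and was 53.4% to 61.3% in the single replicates. Against flanks, 2 words, GAGAG and GGAT, passed in the other series-level list (GGAT -7.87 points, adjusted exact p = 0.00402), with the window of 1000 bp (-7.87 points, 0.0310) and with the strongest peak of each gene (-9.16 points, 0.0488), 0 to 1 in the single replicates and 0 with summits in both replicates. Without adjustment, the exact test gave 1 word, GGAA, in replicate 1 alone and 1, GAGAG, with summits in both replicates. Against first promoters, 0 words passed with the window of 1000 bp (4 by the unadjusted exact test) and 4 to 6 in the single replicates.

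Signs turned for words with small differences, and none of the turned values passed. Of these words, CANNTG passed against first promoters without replicate 1 (5.29 points) and TTAATG with the window of 250 bp (-2.68 points, adjusted exact p = 0.0394). Against flanks, in points, TATAAA came to 2.85 without replicate 2 and -3.39 without replicate 1, 0.389 in peaks above the median signal, 1.11 with the window of 1000 bp, 1.77 with flanks 300 bp away and 0.952 with summits in both replicates. GGTCACAC came to -0.108 without replicate 1, 0.0949 without replicate 2 and -0.171 with the window of 250 bp, CGATA to 0.185 with 1000 bp, TGANTCA to 0.341 with the nearer flanks, AGATAA to 0.238 with summits in both replicates and TTAATG to 0.759 without replicate 2, -2.15 without replicate 1 and 0.595 with summits in both. Against first promoters, TATAAA came to -1.46 without replicate 1, 0.470 without replicate 2, -1.17 in the other series-level list, -1.03 in peaks above the median signal, -1.64 with 250 bp, -1.16 with windows of 100 bp to either side of the summit, -0.776 with the strongest peak of each gene and -0.378 with summits in both replicates. GGAA came to 0.197 without replicate 2 and -3.27 without replicate 1, CCGGAA to 0.0313 with 1000 bp, CANNTG to -0.710 with 1000 bp and -1.21 with these wider windows, AGGTCA to -0.182 without replicate 2, 0.0958 without replicate 1 and -0.142 in peaks above the median signal, TGANTCA to 0.0895 with 1000 bp, and TTAATG to 1.00 without replicate 2 and 0.349 without replicate 1. The cause was not tested in any of these cases.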

Other observations

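The 733 peaks at internal promoters were spread over 5 chromosome arms, with 181 on X, 149 on 3R, 145 on 3L, 135 on 2R and 123 on 2L. CACACA, a simple repeat word, was at 12.1% of internal-promoter summits, 9.33% of first-promoter summits and 9.03% of all summits in the list (internal against first, adjusted exact p = 0.118). In replicate 1 alone its difference from first promoters was 5.02 points (adjusted exact p = 0.00806). The E-box CANNTG differed by 5.29 points in replicate 2 alone (adjusted exact p = 0.0193), and by 0.988 points in the list of both replicates (adjusted exact p = 0.689). In 51-bp windows along the DNA, GAGAG was at 16.2% of internal-promoter windows at the summit, at 20.9% 100 bp to the left and 18.3% 100 bp to the right as the reference is read, and at 7.50% and 8.46% 500 bp to the left and right. Across the 5 groups by signal, GGAA was at 46.9% of the strongest and 54.4% of the weakest internal-promoter peaks.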
